A study of Mus musculus with 2 samples.

Results

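Bdh1, Acat1 and Oxct1 encode mitochondrial enzymes of ketone body metabolism, and their transcripts were followed here from stem cells to enterocytes and secretory cells of the mouse intestinal crypt. They are 3 of the 32285 genes listed in both libraries and were picked by symbol, with no threshold on a measured value. The choice was made with earlier results of these data known. Ketone bodies are small acids made from acetyl-CoA, chiefly in the liver and also at the crypt base, and burnt in other tissues. Acat1 joins acetyl-CoA molecules into acetoacetyl-CoA and runs the reverse step when ketone bodies are burnt. Bdh1 interconverts acetoacetate and β-hydroxybutyrate, and Oxct1 activates acetoacetate with the CoA of succinyl-CoA, which commits it to oxidation. In intestinal stem cells β-hydroxybutyrate has been tied to Notch signaling and cell fate.

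The series held 2 single-cell libraries of intestinal crypt cells sorted as EpCAM+ and 7-AAD-, 1 from wild type (WT) mice and 1 from MG53-TG mice, which carry a transgene for MG53 (gene Trim72), a membrane repair protein known from muscle. Both groups drank 2.5% dextran sulfate sodium (DSS), which injures the gut lining, and were sampled on day 7, and the WT mice were littermates of the MG53-TG mice. The study describes overexpression of MG53 throughout the body; strain, age and the promoter of the transgene were not given in the sources used here. It gives more than 1 mouse a group for this assay, but the tables do not tie cells to mice, so each library counts as 1 sample. There was thus no replicate, and genotype, library, the version of the counting program and the listing of barcodes cannot be told apart. All intervals below are 95% intervals that cover counting error only, and no p-value is given between genotypes or cell types.

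The deposited values were counts of unique molecular identifiers (UMIs), each standing for 1 captured transcript. The WT table summed to 158455748 UMIs and the MG53-TG table to 128227881, and 46 barcodes of at least 500 UMIs occurred in both. Barcodes entered the clustering when they held 1354 UMIs and 200 genes or more and no more than 25% of UMIs from mitochondrial genes, and clusters were named from marker genes, each name standing for cells like that type. The 6963 WT and 4941 MG53-TG cells kept after removal of likely doublets held 6119 and 4606 epithelial cells. Trim72 was counted 63 times in the epithelial cells of the WT library and 4569 times in those of MG53-TG, in the direction of the labels. Levels are given as CPM, the UMIs of a gene per 1000000 UMIs of the same cells, and the sorting marker Epcam stood at 567.4 and 600.3 CPM in the epithelial cells of WT and MG53-TG, and the leukocyte gene Ptprc at 6.27 and 12.0 CPM. The stem-like class held 984 WT and 486 MG53-TG cells, absorptive progenitors 1246 and 504, and enterocytes 1243 and 930. Secretory progenitors numbered 485 and 464, goblet cells 1163 and 1461, Paneth cells 375 and 218, enteroendocrine cells 286 and 181, and tuft cells 231 and 285. The summed level of the 11 stem markers was 2069 and 2927 CPM in stem-like cells of WT and MG53-TG against 61.4 and 37.6 CPM in enterocyte-like cells, and that of the 18 enterocyte markers ran the other way, from 1905 and 2341 CPM to 55597 and 56328 CPM. Progenitor names were less sharp. The 9 absorptive progenitor markers summed to 16652 and 20423 CPM in that class, but to 17920 and 22103 CPM in enterocyte-like cells. The 7 secretory progenitor markers summed to 692 and 707 CPM in their class against 578 and 580 CPM in goblet cells. Neither secretory progenitor cluster had a marker of its own among its 10 leading genes. Since the kit captures the 3′ end, CPM values are compared within a gene across cells and never between genes.

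On the mouse genome build GRCm38, Bdh1 (ENSMUSG00000046598) lies at chr16:31422280-31458901 on the plus strand. Acat1 (ENSMUSG00000032047) lies at chr9:53580522-53610382 on the minus strand, and Oxct1 (ENSMUSG00000022186) at chr15:4026383-4155344 on the plus strand. No other gene of the annotation shared a stretch of 60 exact transcript bases with any of them. Exons of Bdh1 overlap Gm15743 and exons of Oxct1 overlap BC037032, both on the opposite strand. Windows upstream of the start sites of Bdh1 and Oxct1 are shown, from RefSeq on GRCm38.p6 and ending before the first annotated exon base, because the levels of these genes took different courses along the crypt axis. The window of Bdh1 is chr16:31422047-31422279 and that of Oxct1 is chr15:4026178-4026382, both written 5′ to 3′ on the plus strand, with matches to the nuclear receptor half-site GGGTCA in capitals, which in Oxct1 lies on the opposite strand and reads as its reverse complement.
Bdh1: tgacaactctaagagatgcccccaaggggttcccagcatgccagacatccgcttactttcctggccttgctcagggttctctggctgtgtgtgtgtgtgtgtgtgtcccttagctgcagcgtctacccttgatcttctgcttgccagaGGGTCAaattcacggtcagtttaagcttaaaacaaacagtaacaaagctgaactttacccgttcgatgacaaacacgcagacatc
Oxct1: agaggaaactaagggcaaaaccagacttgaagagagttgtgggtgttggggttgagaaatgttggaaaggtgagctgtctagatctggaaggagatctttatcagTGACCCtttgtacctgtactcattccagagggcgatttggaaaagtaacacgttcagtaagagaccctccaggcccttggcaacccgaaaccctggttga

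Each window held 1 match to GGGTCA, 102 bases before the RefSeq start of Bdh1 and 145 bases before that of Oxct1. Among 32851 promoter windows of the same length, 10.99% held this motif for the Bdh1 length and 9.70% for the Oxct1 length. These letters were added to the search after the windows had been read. The other motifs searched on both strands were the A form of the half-site (AGGTCA), the TATA box (TATAAA), the CCAAT box, the GC box (GGGCGG), a TCF/LEF motif (ATCAAAG), an HNF4A motif (CAAAGTCC), a CDX2 motif (TTTATNG) and the E-box (CACGTG), and none of them was in either window. Between 0.9497% and 32.45% of windows of these lengths held each of those. A further RefSeq start of Bdh1 lies within the gene, and its window at chr16:31428503-31428747, in an intron, held none of the motifs. The table of promoters had no entry for Acat1.

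Acat1 was highest in the undifferentiated and early absorptive cells and, on the CPM scale, lowest in Paneth cells. It stood at 222.5 CPM (216.5 to 228.6) in WT and 215.4 CPM (207.8 to 223.2) in MG53-TG stem-like cells. In absorptive progenitors it was 213.3 and 223.8 CPM, and in enterocytes 114.1 and 117.5 CPM, here and below in the order WT, MG53-TG. The log2 ratio of absorptive progenitors to stem-like cells was -0.06 (-0.12 to -0.0048) in WT and 0.06 (-0.02 to 0.13) in MG53-TG, and both types stood well above enterocytes. Among secretory cells, Acat1 was 102.7 and 105.0 CPM in secretory progenitors and 45.1 and 48.0 CPM in goblet cells. Tuft cells held 59.7 and 52.9 CPM, enteroendocrine cells 50.3 and 39.9 CPM, and Paneth cells 24.9 and 29.4 CPM. The intervals of enterocytes and secretory progenitors overlapped in WT, as did those of tuft, enteroendocrine and goblet cells from neighbour to neighbour, and those of tuft, goblet, enteroendocrine and Paneth cells overlapped from neighbour to neighbour in MG53-TG.

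Bdh1 was likewise highest in stem-like cells and absorptive progenitors. Its level was 110.3 CPM (106.1 to 114.6) in WT and 91.1 CPM (86.2 to 96.2) in MG53-TG stem-like cells. Absorptive progenitors held 98.9 and 86.1 CPM, secretory progenitors 74.9 and 56.9 CPM, and enterocytes 60.6 and 53.4 CPM. The first of these steps was a log2 ratio of -0.16 (-0.24 to -0.08) in WT and -0.08 (-0.20 to 0.04) in MG53-TG. Goblet cells held 47.4 and 44.6 CPM, tuft cells 43.6 and 45.2 CPM, and Paneth cells 26.3 and 26.9 CPM. In enteroendocrine cells Bdh1 was 26.0 CPM on 59 UMIs in WT and 38.4 CPM on 79 UMIs in MG53-TG, so that both values rest on few molecules. In WT only goblet and tuft cells, and Paneth and enteroendocrine cells, overlapped as neighbours in the order, and in MG53-TG 6 of the 7 pairs of neighbours did, all but absorptive against secretory progenitors. Overlap also depends on the number of UMIs, which for Bdh1 in stem-like cells was 2590 in WT and 1280 in MG53-TG. The libraries are therefore not compared by it.

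Oxct1 took another course and was about as high in enterocytes as in stem-like cells. It stood at 101.4 CPM (97.4 to 105.6) in WT and 98.2 CPM (93.1 to 103.5) in MG53-TG stem-like cells and at 105.2 and 91.0 CPM in absorptive progenitors. Enterocytes held 119.5 CPM (114.0 to 125.3) in WT and 96.0 CPM (91.2 to 101.0) in MG53-TG. The 3 MG53-TG types overlapped in their intervals, whereas WT enterocytes lay above the other 2 WT types. Enteroendocrine cells held 67.9 and 54.5 CPM, goblet cells 59.0 and 54.0 CPM, and secretory progenitors 45.8 and 46.6 CPM. Tuft cells were low at 17.98 and 12.9 CPM, as were Paneth cells at 13.4 and 9.96 CPM. Enteroendocrine and goblet cells overlapped in both libraries, as did tuft and Paneth cells.

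**Figure D1:**
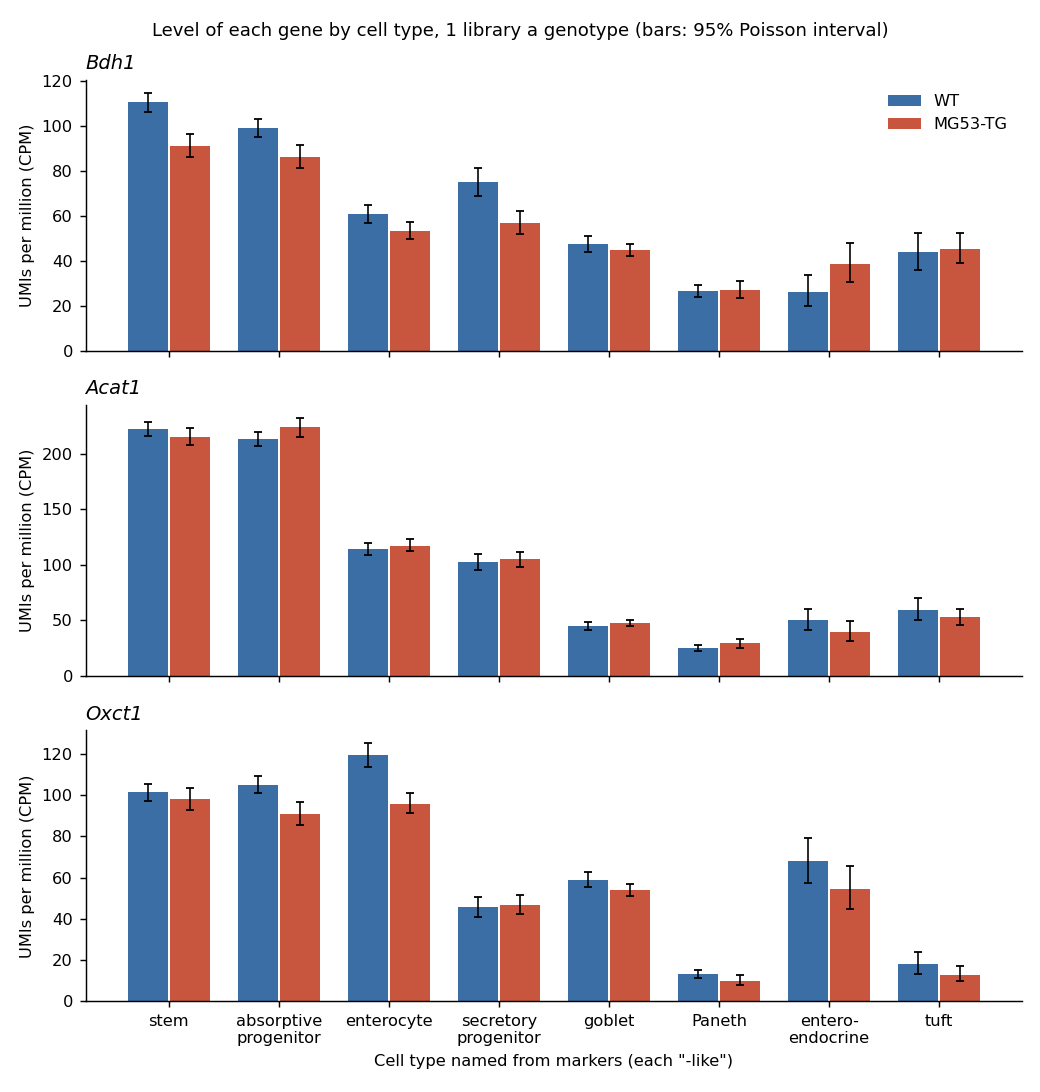
Levels of Bdh1, Acat1 and Oxct1 in 8 cell types, in CPM on axes that start at 0, with WT in blue and MG53-TG in red and the error bars showing exact 95% Poisson intervals. Acat1 falls from 222.5 to 114.1 CPM between WT stem-like cells and enterocytes, whereas Oxct1 stands at 101.4 and 119.5 CPM in the same cells.

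Cells outside the epithelium gave a level to compare with. The study describes the sequenced cells as negative for CD45, the product of Ptprc, a gate that would remove T cells, yet clusters led by T cell genes were present. They had a median depth of 2692 and 3420 UMIs and held 20.8 and 18.9 CPM of Bdh1, 36.6 and 26.7 CPM of Acat1 and 24.1 and 32.7 CPM of Oxct1. The Acat1 level of Paneth cells and the Oxct1 levels of Paneth and tuft cells overlapped those of T cell-like cells in their intervals or lay below them. The Acat1 levels of enteroendocrine cells in both libraries and of goblet cells in WT, and the Bdh1 levels of Paneth cells, overlapped them too. Bdh1 in enteroendocrine cells overlapped the T cell-like level in WT and lay above it in MG53-TG. Levels in Paneth cells were set against UMIs filled by a few genes: the 10 Paneth markers took 518013 and 496390 CPM there, and the median log2 ratio of all genes to stem-like cells was -1.28 and -1.21. Scaled by the median of ratios, the log2 ratio of Acat1 to stem-like cells was -1.68 and -1.65 in Paneth cells against -2.67 and -2.90 in enteroendocrine cells, and that of Oxct1 was -1.45 and -2.08 in Paneth cells against -2.72 and -3.13 in tuft cells. Which secretory type was lowest thus changed with the scaling, and a low CPM in Paneth cells is not read as absence. WT barcodes under 100 UMIs, which are mostly empty droplets, held 54.5 CPM of Bdh1, 80.1 CPM of Acat1 and 68.4 CPM of Oxct1. The MG53-TG table listed no barcode below 500 UMIs, so the free RNA of that library was not measured.

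To see the course without borders between classes, the stem-like, absorptive progenitor and enterocyte cells of each library were ranked by their enterocyte marker score minus their stem marker score and cut into 10 bins of equal cell number. Acat1 rose before it fell: it went from 189.7 CPM in WT bin 1 to 240.3 CPM in bin 4 and 81.8 CPM in bin 10, and in MG53-TG from 169.1 CPM to 253.6 CPM in bin 3 and 65.8 CPM in bin 10. Bdh1 stayed between 105.1 and 112.4 CPM over the first 5 WT bins and then fell to 43.8 CPM. In MG53-TG it lay between 81.6 and 95.7 CPM over those bins and ended at 40.8 CPM. Oxct1 ended close to where it began, at 94.7 and 95.2 CPM in WT and 88.7 and 85.6 CPM in MG53-TG, with a WT maximum of 133.2 CPM in bin 8. The MG53-TG maximum of Oxct1 was 105.1 CPM, in bin 3.

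**Figure D2:**
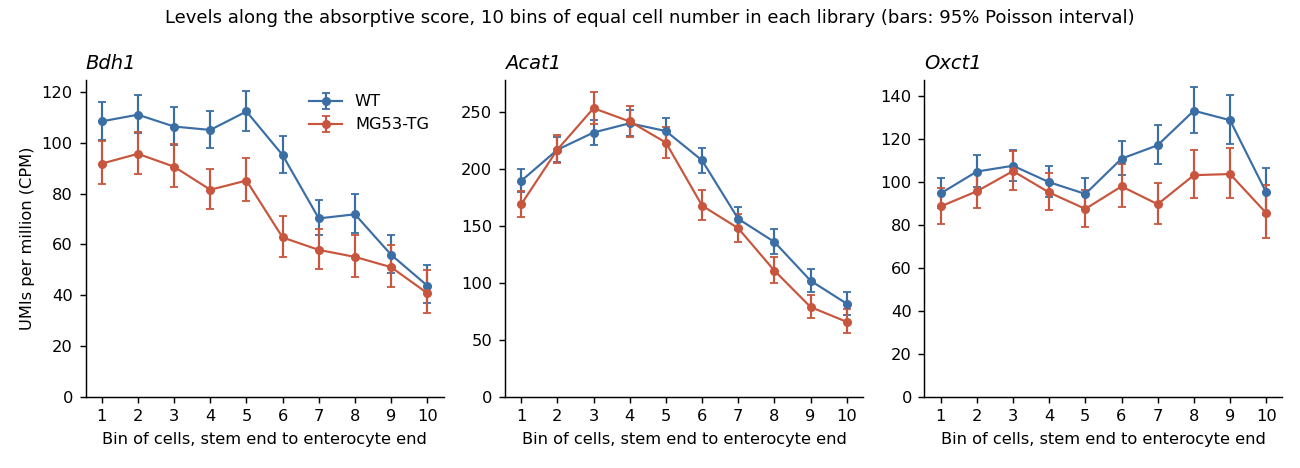
Levels of Bdh1, Acat1 and Oxct1 in CPM in 10 bins of cells ranked from the stem end to the enterocyte end, with 347 or 348 WT (blue) and 192 MG53-TG (red) cells a bin and exact 95% Poisson intervals. Acat1 peaks in bin 3 or 4 and Bdh1 drops after bin 5, whereas Oxct1 lies between 85.6 and 133.2 CPM in all bins of both libraries.

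Between the first and the last bin, Bdh1 had a log2 ratio of -1.31 in WT and -1.17 in MG53-TG, and Acat1 of -1.21 and -1.36. The corresponding log2 ratio of Oxct1 was 0.01 in WT and -0.05 in MG53-TG. Depth and mitochondrial share changed along the same ranking. The median depth fell from 19726 to 5530 UMIs in WT and from 23674 to 9307 in MG53-TG, and the median mitochondrial share went from 4.91% to 10.2% and from 4.88% to 11.2%. Their part in these courses was not tested. A bin is a range of cells rather than a type: bin 7 was 53.9% enterocytes in WT and 94.8% in MG53-TG, so equal bins of the libraries did not hold equal cells.

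Over whole classes, Acat1 in enterocytes was 0.513 times its stem-like level in WT and 0.545 times in MG53-TG, log2 ratios of -0.96 (-1.04 to -0.88) and -0.87 (-0.96 to -0.79). The log2 ratio of Bdh1 was -0.86 (-0.98 to -0.75) in WT and -0.77 (-0.90 to -0.64) in MG53-TG. For Oxct1 it was 0.24 (0.15 to 0.33) in WT and -0.03 (-0.14 to 0.07) in MG53-TG. So 2 of the 3 genes were at least 1.5-fold lower in enterocytes in each library, and none was 1.5-fold higher. Of the 11723 WT genes with at least 30 UMIs over both classes, 40.8% were at least 1.5-fold lower in enterocytes and 22.6% higher, and of 11384 MG53-TG genes 40.2% were lower and 23.8% higher. A fall of this size was thus common among all genes, and nothing particular to these enzymes is read from the count. The median log2 ratio over all genes tested was -0.31 in WT and -0.29 in MG53-TG, and relative to it Oxct1 stood on the higher side.

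The direction for Acat1 and Bdh1 held under each of the 14 alternatives tried, with log2 ratios from -1.64 to -0.55. Without the enterocyte clusters whose depth was under 0.5 times their library's median, the values were -0.63 and -0.60 in WT and -0.55 and -0.55 in MG53-TG for Acat1 and Bdh1, the latter pair under 1.5-fold; scaled by the median of ratios, Bdh1 in MG53-TG was under 1.5-fold too, at -0.57. The size of the Oxct1 ratio in WT enterocytes depended on the setting. It was 0.48 without those shallow clusters, 0.44 by the median of ratios, 0.42 without clusters led by cycling genes and 0.33 at Leiden resolution 2, but 0.0031 as a mean of single-cell levels, 0.03 with a mitochondrial limit of 50% and -0.08 with all cells thinned to equal depth.

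Classes were not uniform inside. Among the 4 enterocyte clusters, Acat1 ran from 151.4 and 169.0 CPM in the cluster led by Sult6b2, Gsta1 and Reg1 to 19.1 and 19.0 CPM in the cluster led by Clca4a, Ly6m and Saa1. The last cluster also carried Ada, which marks villus tip cells, and had a median depth of 3820 UMIs, against 21454 in the first. Bdh1 ran over the same clusters from 78.6 and 65.1 CPM to 20.5 and 23.8 CPM. In the Clca4a cluster both genes were near or below the level of T cell-like cells, on 16 to 29 UMIs a library. Oxct1 stood at 77.0 and 101.2 CPM in that cluster, and at 169.6 and 113.0 CPM in the cluster led by Leap2, Cyp3a11 and Slc2a2.

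Absorptive progenitors held a cluster in which the genes parted already. In the cluster led by Fabp6, the ileal bile acid binding protein, Acat1 was 119.4 and 142.6 CPM, against 220.1 to 239.5 CPM in the other 2 progenitor clusters. Bdh1 was 69.3 and 70.1 CPM there, against 86.3 to 114.3 CPM. Oxct1 was higher in it, at 141.7 and 148.9 CPM against 81.1 to 102.2 CPM. Stem-like cells split into a cluster led by histone and mitotic genes such as Nusap1 and Aurkb, which held 10 of the 10 cycling markers, and another led by Olfm4, which held 5 of them. Acat1 was 235.3 and 239.0 CPM in the Nusap1 cluster and 202.5 and 177.0 CPM in the Olfm4 cluster. Oxct1 was 109.1 CPM in both libraries in the Nusap1 cluster and 89.5 and 80.5 CPM in the other, whereas Bdh1 was lower in the Nusap1 cluster, at 106.0 and 85.2 CPM against 117.0 and 100.7 CPM.

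**Figure D3:**
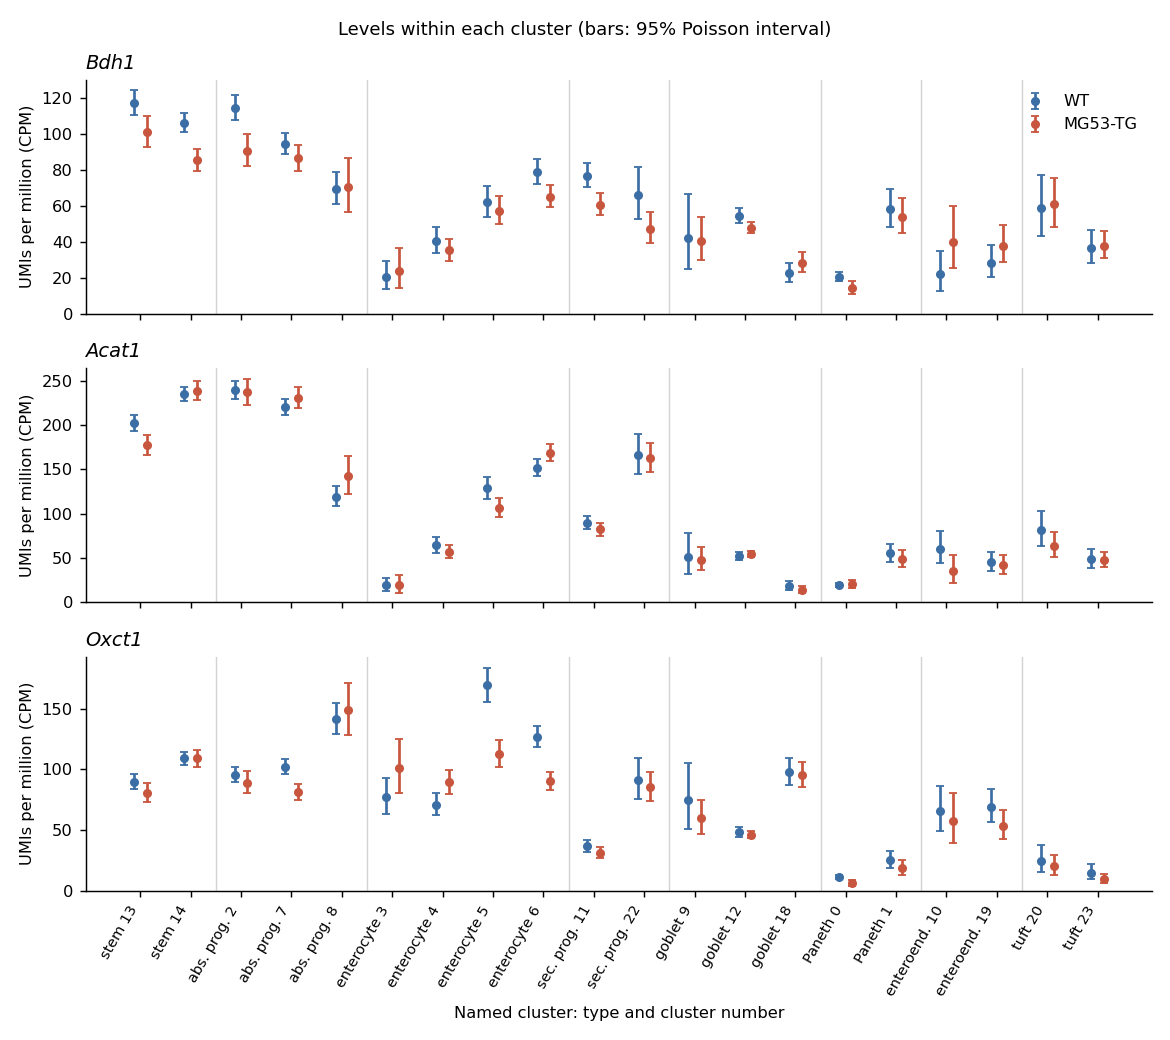
Levels of Bdh1, Acat1 and Oxct1 in CPM in each of the 20 named epithelial clusters, grouped by type, with WT in blue, MG53-TG in red and exact 95% Poisson intervals. Acat1 falls to 19.1 CPM in WT cells of enterocyte cluster 3, and Oxct1 reaches 169.6 CPM in WT cells of enterocyte cluster 5 against 113.0 CPM in MG53-TG.

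All 3 genes were lower in secretory than in stem-like cells. Over goblet, Paneth, enteroendocrine and tuft cells summed, called mature secretory cells here and leaving out secretory progenitors, the log2 ratio of Acat1 to stem-like cells was -2.54 (-2.63 to -2.45) in WT and -2.27 (-2.36 to -2.19) in MG53-TG. That of Bdh1 was -1.57 and -1.15, and that of Oxct1 -1.42 and -1.24. The median log2 ratio over all genes was -0.34 and -0.13, and the median of ratios shifted by -0.51 and -0.30. Paneth cells gave 40.8% of these secretory UMIs in WT and 18.6% in MG53-TG, so the sums are not compared between the libraries. The share of all genes at least 1.5-fold lower was 39.3% in WT and 32.6% in MG53-TG, with 19.8% and 24.4% higher, so 3 of 3 stood beside a common fall here too. In secretory progenitors led by cycling genes Acat1 was 166.6 and 163.0 CPM, against 89.9 and 82.2 CPM in the other secretory progenitors. Oxct1 was 91.4 and 85.6 CPM in the cycling cluster against 36.7 and 31.4 CPM in the other, whereas Bdh1 was lower in the cycling cluster, at 65.9 and 47.3 CPM against 76.7 and 60.6 CPM. The same lists of related genes fell unevenly here: 13 of 14 citrate cycle genes were at least 1.5-fold lower in mature secretory than in stem-like cells in each library, with median log2 ratios of -1.45 and -1.17, whereas 4 of 7 other ketone body genes were higher and 2 lower.

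Goblet clusters also differed, with Oxct1 on the one side and Acat1 and Bdh1 on the other. In the goblet cluster led by Ido1, whose defining genes include the goblet product Zg16, Oxct1 was 98.2 and 95.3 CPM, against 48.1 and 46.2 CPM in the largest goblet cluster. Acat1 was 18.3 and 13.7 CPM in the Ido1 cluster against 51.9 and 54.1 CPM, and Bdh1 22.4 and 28.2 CPM against 54.2 and 47.9 CPM. The Ido1 cluster had a median depth of 8173 UMIs and the largest cluster 17452.

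Over all epithelial cells, each gene was lower in MG53-TG than in WT by less than 1.5-fold. Bdh1 was 73.8 CPM (72.1 to 75.4) in WT against 58.7 CPM (57.1 to 60.3), a log2 ratio of -0.33 (-0.38 to -0.28). For Acat1 the levels were 134.3 and 114.0 CPM with a log2 ratio of -0.24 (-0.27 to -0.20), and for Oxct1 79.1 and 67.2 CPM with -0.24 (-0.28 to -0.19). None of the 3 passed 1.5-fold, a size that 0.498% of 14656 genes passed downward and 2.07% upward. The median log2 ratio over all genes was 0.07, and relative to it all 3 stood lower.

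The mix of cell types also differed between the libraries. Stem-like cells gave 22.1% of the epithelial UMIs in WT and 15.6% in MG53-TG, absorptive progenitors 22.3% and 13.6%, and goblet cells 14.6% and 27.5%. With each type held at its WT share of UMIs, an alternative added after the values had been seen, the log2 ratio was 0.01 for Acat1, -0.21 for Bdh1 and -0.17 for Oxct1.

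Within types, Bdh1 was lower in MG53-TG in the crypt and absorptive classes. Its log2 ratio was -0.28 (-0.37 to -0.18) in stem-like cells, -0.20 (-0.31 to -0.09) in absorptive progenitors, -0.18 (-0.32 to -0.05) in enterocytes and -0.40 (-0.57 to -0.22) in secretory progenitors. Both clusters of stem-like cells and both of secretory progenitors had intervals below 0. Of the absorptive progenitor clusters only that led by Gsdmc2 did, at -0.34 (-0.51 to -0.17). That led by Cyp4a10 gave -0.13 (-0.28 to 0.02) and the Fabp6 cluster 0.02 (-0.35 to 0.37). Of the enterocyte clusters only the Sult6b2 cluster did, at -0.27 (-0.46 to -0.09), and the others spanned 0. Goblet cells at -0.09, Paneth cells at 0.03 and tuft cells at 0.05 had intervals across 0. The Paneth value pools clusters whose shares differed: the cluster led by Gm14851 and Defa21 took up 242 of 375 Paneth cells in WT but 98 of 218 in MG53-TG, and within it Bdh1 was -0.52 (-0.92 to -0.13), with -0.11 (-0.48 to 0.27) in the other. The goblet value pools clusters of both signs, -0.18 (-0.33 to -0.03) in the largest and 0.33 (-0.12 to 0.79) in the Ido1 cluster. Enteroendocrine cells went the other way at 0.56 (0.06 to 1.07), on 79 and 59 UMIs. By named cluster, 8 of 20 had an interval below 0 for Bdh1 and 0 of 20 above it. The share of all genes with such intervals was not computed, so nothing is read from this count. An epithelial cluster of 106 WT and 77 MG53-TG cells stayed unnamed, as it mixed goblet and enterocyte markers. It gave -0.67 (-1.09 to -0.26) for Bdh1, -0.80 (-1.18 to -0.42) for Acat1 and 0.14 (-0.26 to 0.54) for Oxct1. The Bdh1 ratio stayed negative under all alternatives in stem-like cells, from -0.56 to -0.22, and in absorptive progenitors, from -0.27 to -0.20, but in enterocytes it was 0.01 as a mean of single-cell levels and 0.44 with cells thinned. Only 61 WT and 62 MG53-TG enterocytes held a Bdh1 UMI once thinned, so that value carries a wide counting error. With cells named by marker score, the intervals of stem-like cells, at -0.22 (-0.51 to 0.07), and enterocytes, at -0.05 (-0.24 to 0.13), spanned 0. None of the 8 types passed 1.5-fold for Bdh1. Of all genes tested, 0.886% were that much lower and 1.34% higher in MG53-TG stem-like cells, and 2.26% and 1.68% in enterocytes.

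Within types, Acat1 gave ratios of both signs between the libraries. Its log2 ratio was -0.05 in stem-like cells (-0.11 to 0.02), 0.07 in absorptive progenitors (0.0016 to 0.14) and 0.04 in enterocytes (-0.05 to 0.14). In the 5 secretory types it ran from -0.33 in enteroendocrine cells to 0.24 in Paneth cells, each with an interval across 0. Within the 2 Paneth clusters, whose shares differed between the libraries, it was 0.07 and -0.17, also with intervals across 0. The enteroendocrine cluster led by Afp and Tph1 gave -0.80 (-1.63 to -0.017), on 47 WT and 20 MG53-TG UMIs. The other enteroendocrine cluster gave -0.10 (-0.62 to 0.42). Of the 8 types, only absorptive progenitors had an interval that left 0 out, with a lower bound at 0.0016, and no direction is read from it: the interval spanned 0 with the median of ratios, at 0.02 (-0.05 to 0.08), and in each of the 3 progenitor clusters, at -0.01, 0.07 and 0.26. Under the 13 alternatives the progenitor value stayed above 0, from 0.00087 to 0.17. Its interval left 0 out in some of them, such as Leiden resolution 2 (0.04 to 0.15) and a mitochondrial limit of 50% (0.01 to 0.15). In the Olfm4 cluster of stem-like cells, however, Acat1 was lower in MG53-TG at -0.19 (-0.31 to -0.08), where the Nusap1 cluster gave 0.02 (-0.06 to 0.10). Values depended on the processing: that of enterocytes was -0.21 (-0.30 to -0.12) with a mitochondrial limit of 50%, and that of stem-like cells -0.18 (-0.27 to -0.09) at Leiden resolution 2.

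For Oxct1, the interval lay below 0 in absorptive progenitors and enterocytes and spanned 0 in stem-like cells. The log2 ratio was -0.05 (-0.14 to 0.05) in stem-like cells, -0.21 (-0.31 to -0.11) in absorptive progenitors and -0.32 (-0.42 to -0.22) in enterocytes. With cells named by marker score, stem-like cells gave -0.37 (-0.65 to -0.08). Goblet cells, at -0.13 (-0.25 to -0.01), and Paneth cells, at -0.42 (-0.84 to -0.02) from levels below those of T cell-like cells, also had intervals below 0. By cluster, Oxct1 gave -0.90 (-1.53 to -0.31) in the Gm14851 cluster of Paneth cells, on 134 WT and 29 MG53-TG UMIs, and -0.44 (-1.07 to 0.17) in the other. Each of the 3 goblet clusters had an interval across 0, at -0.32, -0.06 and -0.04, and the Ido1 cluster, high in Oxct1, took up 345 of 1163 goblet cells in WT but 330 of 1461 in MG53-TG. Of the absorptive progenitor clusters, that led by Cyp4a10 gave -0.33 (-0.49 to -0.18), that led by Gsdmc2 -0.10 (-0.27 to 0.07) and the Fabp6 cluster 0.07 (-0.18 to 0.32), which took up 206 of 1246 progenitors in WT but 60 of 504 in MG53-TG. Within enterocytes the clusters gave both signs. The Leap2 cluster gave -0.59 (-0.77 to -0.40) and the Sult6b2 cluster -0.49 (-0.64 to -0.34), both deep, whereas the shallow cluster led by Enpp7, with a median of 6327 UMIs, gave 0.33 (0.08 to 0.58) and the Clca4a cluster 0.39 (-0.03 to 0.82). Thinned to equal depth, which gives each cell the same weight, the enterocyte ratio was 0.08 and that of absorptive progenitors 0.37. Once thinned, 150 WT and 121 MG53-TG enterocytes and 155 and 82 absorptive progenitors held an Oxct1 UMI, so both values carry a wide counting error. The enterocyte ratio was also smaller as a mean of single-cell CPM, at -0.09, and with a mitochondrial limit of 50%, at -0.13, but larger without the shallow enterocyte clusters, at -0.53 (-0.64 to -0.41). The median depth of enterocytes was 7776 UMIs in WT and 15404 in MG53-TG, with mitochondrial shares of 8.69% and 10.4%. Their part in the Oxct1 values was not tested.

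**Figure D4:**
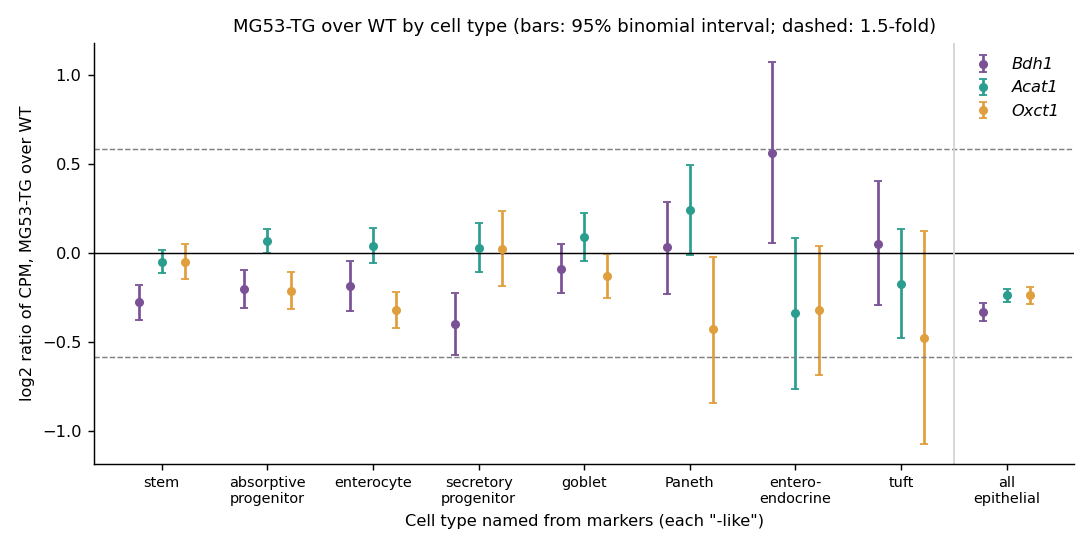
Log2 ratio of the level in MG53-TG over WT for Bdh1, Acat1 and Oxct1 in each cell type and over all epithelial cells, with exact 95% binomial intervals and dashed lines at 1.5-fold. Bdh1 lies below 0 in stem-like cells at -0.28, Acat1 lies near 0 at -0.05, and Oxct1 departs from 0 in enterocytes at -0.32; no point passes the dashed lines.

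The mature secretory cells summed, again without secretory progenitors, gave log2 ratios above 0 for the 3 genes, at 0.15 for Bdh1, 0.22 for Acat1 and 0.13 for Oxct1. The sign changed with the scaling: size factors by the median of ratios turned them to -0.12, -0.04 and -0.13. In these cells the median log2 ratio over all genes was 0.22, and Paneth cells gave 40.8% of their UMIs in WT and 18.6% in MG53-TG. No direction is read from these values.

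Other genes of the pathway were followed over the same cells. Among the transporters, Slc16a1, a carrier of lactate and ketone bodies, fell from 45.4 to 29.7 CPM in WT and from 53.1 to 28.2 CPM in MG53-TG between stem-like cells and enterocytes. Slc16a6, known as a ketone body exporter of the liver, was higher in enterocytes, at 59.7 CPM against 14.0 CPM in WT and 60.5 against 13.9 CPM in MG53-TG. Slc16a3, a lactate exporter, was at 15.01 and 11.3 CPM in enterocytes and at 1.02 and 0.64 CPM in stem-like cells. Aacs, which activates acetoacetate in the cytosol for lipid synthesis, fell from 12.6 to 6.03 CPM and from 11.1 to 5.01 CPM. Of the 11 other ketone body genes, 6 had enough UMIs in these classes, and in each library 3 of them were at least 1.5-fold lower in enterocytes and 2 higher, beside the 40.8% and 22.6% of all genes in WT. Oxct2a had 4 UMIs and Oxct2b 11 over the epithelial cells of both libraries. Between genotypes, none of the 6 passed 1.5-fold in stem-like cells, where 1.34% of all genes were higher and 0.886% lower, or in enterocytes, where 1.68% were higher and 2.26% lower, so little is read from this count.

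Acat1 also carries out the last step of isoleucine breakdown, and 6 of 9 genes of that and of short chain acyl-CoA breakdown were at least 1.5-fold lower in WT enterocytes than in stem-like cells, with 1 higher. The median log2 ratio of the 9 was -1.22 in WT and -0.95 in MG53-TG, where 5 were lower. Over all genes, 40.8% were lower and 22.6% higher in WT, with a median of -0.31, and 40.2% and 23.8% in MG53-TG, with a median of -0.29. Hsd17b10, the enzyme of the step before Acat1, went from 195.3 to 72.8 CPM in WT and from 200.8 to 79.2 CPM in MG53-TG. Bcat2, the first enzyme of branched chain amino acid breakdown, went from 18.7 to 4.04 CPM and from 18.9 to 4.30 CPM. Hadh, of short chain fatty acid oxidation, was the gene at least 1.5-fold higher, going from 350.1 to 718.8 CPM and from 316.7 to 625.0 CPM. Of the other thiolases and the cytosolic branch, 8 of 9 genes were tested, with 2 higher and 2 lower in WT and 2 higher and 1 lower in MG53-TG. The peroxisomal Acaa1a and Acaa1b were higher in enterocytes, with WT log2 ratios of 1.49 and 3.77, and the cytosolic Acat2, of sterol synthesis, was lower at -1.76.

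Oxct1 takes its CoA from a citrate cycle intermediate, and the cycle's genes were divided. Of 14, 5 were at least 1.5-fold higher and 4 lower in WT enterocytes, and 6 and 3 in MG53-TG, beside the 22.6% and 40.8% of all genes in WT and the 23.8% and 40.2% in MG53-TG, which also stand beside the regulators below. Ogdh and Dlst, subunits of the complex that makes succinyl-CoA, had WT log2 ratios of 1.62 and 1.19 and MG53-TG ratios of 1.84 and 1.26. Sucla2, of the ATP-forming succinyl-CoA ligase, gave 0.54 and 0.76, whereas Suclg2, of the GTP-forming enzyme, gave -1.22 and -1.47. Cs and Mdh2, which bring acetyl units into the cycle and close it, rose by log2 ratios of 1.37 and 1.33 in WT and 1.46 and 1.51 in MG53-TG. Of the 10 regulators of ketogenesis listed, Fgf21 was below the UMI minimum, and of the 9 tested 3 were higher and 2 lower in WT and 2 and 2 in MG53-TG. Ppargc1a and Ppard were higher in enterocytes, at 2.63 and 1.197 in WT and 2.94 and 1.72 in MG53-TG, and Cpt1a, the gate of mitochondrial fatty acid import, was lower at -1.48 and -1.44. Ppara, a nuclear receptor that drives ketogenic genes in the liver, gave 0.06 (-0.18 to 0.29) and 0.13 (-0.13 to 0.39). Between genotypes, over all epithelial cells, no tested gene of the 5 lists passed 1.5-fold in either direction, beside 2.07% of all genes higher and 0.498% lower. Within single classes some did, with the highest counts in 2 of them. In Paneth cells 4 of 7 other ketone body genes were at least 1.5-fold higher in MG53-TG, where 8.86% of all genes were that much higher and 4.47% lower. The median of all genes there was 0.18, the median of ratios shifted by 0.25, and the shares of the Paneth clusters differed as given above. Over mature secretory cells 3 of 8 genes of the thiolase list were higher, beside 2.25% of all genes higher and 2.07% lower, and the median of all genes there was 0.22.

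**Figure D5:**
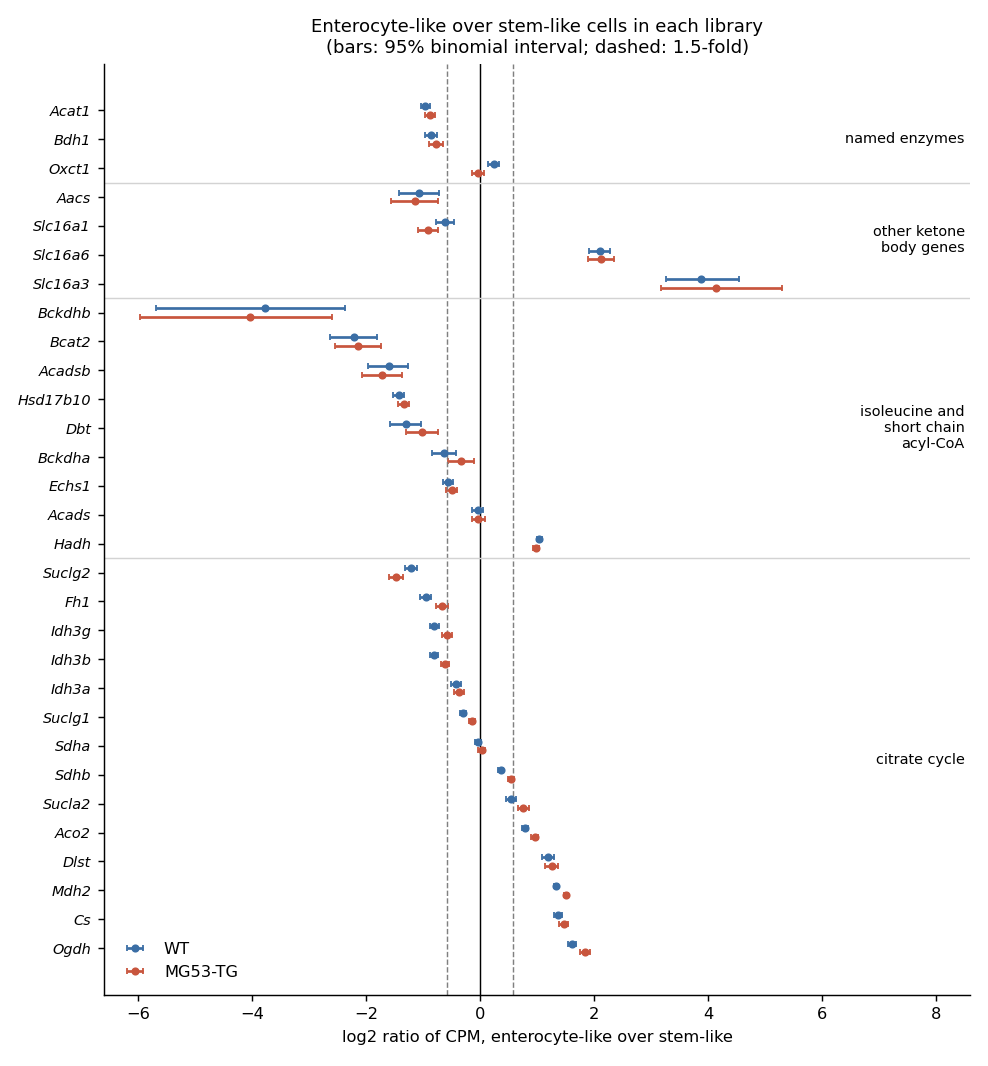
Log2 ratio of the level in enterocyte-like over stem-like cells for the 3 enzymes and for genes of 3 related lists, with WT in blue, MG53-TG in red, exact 95% binomial intervals and dashed lines at 1.5-fold. Acat1 lies at -0.96 in WT, Bdh1 at -0.86 and Oxct1 at 0.24, and the citrate cycle runs from Suclg2 at -1.22 to Ogdh at 1.62.

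The genes whose levels most resembled those of each enzyme were sought over 16 points, the 8 cell types in both libraries, among 8026 genes. For Acat1 they were Bola3, Mrpl12 and Aimp2 with Pearson correlations of 0.991, 0.985 and 0.970. For Bdh1 they were Oxnad1 at 0.936, Acat1 at 0.934 and Sdsl at 0.932, and for Oxct1 Clint1 at 0.960, Erbb2 at 0.955 and Ano9 at 0.941. Oxct1 correlated with Acat1 at 0.745 and with Bdh1 at 0.667. Values were taken as log2(CPM + 1), and the correlations are descriptions without a p-value, since the points of a library share its depth and the types share their lineage.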

How the data were processed

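Single-cell RNA sequencing was carried out on sorted EpCAM+ crypt cells, 1 library a genotype. The deposited tables held raw counts of UMIs per gene and barcode, which the authors made with Cell Ranger 4 (WT, all barcodes) and Cell Ranger 6.0.1 (MG53-TG) on mm10; Seurat is named in the submitters' processing notes. WT listed 2005718 barcodes and MG53-TG 12361. After the minimums and the mitochondrial limit, which removed 33.66% and 46.07% of barcodes, 7401 and 5153 remained; Scrublet's automatic threshold marked 1 and 2 cells, so the 438 and 212 highest-scoring cells were removed instead, in proportion to the number of cells. Counts scaled to 10000 a cell were clustered jointly (scanpy 1.11.5, 2000 variable genes ranked over both libraries, less the ketone body genes, 30 components, 15 neighbours, Leiden resolution 1), giving clusters named from at least 3 markers that were 1.5-fold higher and seen in 10% of cells. UMIs were summed per class. Levels have exact Poisson and log2 ratios exact conditional binomial 95% intervals; a gene was counted as higher or lower at 1.5-fold with a pseudocount of 1 CPM among genes with at least 30 UMIs. From the fixed lists any gene with at least 30 epithelial UMIs could be named; some genes counted in the ketone body list are not reported here. The members and lists were chosen with earlier results of these data known, and some naming rules were set after the clusters were seen. Scripts were tested on simulated data.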

Additional observations from a re-analysis of the deposited data

Results flagged for a closer look

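Values that pointed in opposite directions with intervals on either side of 0, or in 1 library and not the other, are listed here; the differences between them were not tested. The MG53-TG over WT log2 ratio of Bdh1 was 0.56 in enteroendocrine cells and -0.40 in secretory progenitors. The enterocyte over stem log2 ratio of Oxct1 was 0.24 in WT and -0.033 in MG53-TG. For Acat1, MG53-TG over WT was 0.16 in enterocyte cluster 6, led by Sult6b2, and -0.27 in cluster 5, led by Leap2. For Oxct1 it was 0.33 in enterocyte cluster 4, led by Enpp7, against -0.59 in cluster 5 and -0.49 in cluster 6. With 1 library a genotype, no group had the 4 samples that a check for outlying samples needs.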

How the results depend on the processing

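No paired analysis was possible because each genotype had 1 library and no test was made. Of the types, enteroendocrine and tuft cells held the fewest UMIs in both libraries, and intervals cover counting error only. Under the alternatives, 44 of 84 enterocyte over stem values stayed within the interval of the reported value and 9 changed sign, 1 of them from an interval that left 0 out; for MG53-TG over WT 158 of 207 stayed and 20 changed sign, 15 of them from such an interval, and the cause was not tested. Enterocyte over stem log2 ratios follow for Bdh1, Acat1 and Oxct1, WT before MG53-TG. With the median of ratios they were -0.66 and -0.57, -0.76 and -0.68, and 0.44 and 0.17. As means of single-cell CPM, those of Bdh1 were -1.34 and -1.02, those of Acat1 -1.47 and -1.25, and that of Oxct1 in WT 0.0031. At a mitochondrial limit of 50% Bdh1 gave -1.29 and -1.27, Acat1 -1.39 and -1.54, and Oxct1 in WT 0.030. Cells thinned to 1354 UMIs gave -1.64 and -0.64, -1.47 and -1.06, and -0.076 and 0.11. Without clusters led by cycling genes Bdh1 in MG53-TG was -0.92, Acat1 -0.83 and -0.59, and Oxct1 0.42 and 0.25. At resolution 2 Acat1 was -0.79 and -0.60 and Oxct1 0.33 and 0.091. With doublets kept Acat1 in WT was -0.83, and with each library clustered on its own Acat1 in MG53-TG was -0.99. By marker score Oxct1 was 0.11 and 0.27. Without the shallow enterocyte clusters, a setting added after the clusters were seen, Bdh1 was -0.60 and -0.55, Acat1 -0.63 and -0.55, and Oxct1 in WT 0.48.

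For MG53-TG over WT in all epithelial cells, the median of ratios gave -0.42, -0.33 and -0.33 for Bdh1, Acat1 and Oxct1. Acat1 was -0.32 as a mean of single-cell CPM, -0.31 at the limit of 50% and -0.34 thinned, and Oxct1 -0.15 at that limit and -0.064 thinned. At WT shares of UMIs, added after the values were seen, Bdh1 was -0.21, Acat1 turned to 0.014, and Oxct1 was -0.17. In enterocytes Bdh1 turned to 0.014 as a mean of single-cell CPM and 0.44 thinned, and Oxct1 to 0.084 thinned. Oxct1 in absorptive progenitors turned to 0.37 thinned. Thinned values rest on far fewer UMIs than the reported ones. Over mature secretory cells, without progenitors, Bdh1 turned to -0.12 with the median of ratios, -0.00073 with doublets kept, -0.078 by marker score, -0.062 thinned and -0.0019 at WT shares. Acat1 there turned to -0.043 with the median of ratios and -0.18 thinned, and Oxct1 to -0.13, to -0.072 and, at WT shares, to -0.20. At 2-fold, 1 in place of 3 other ketone body genes was lower in WT enterocytes. Ranked by the share of UMIs in the enterocyte list, the last over the first WT bin was -1.41 for Acat1 and -0.26 for Oxct1.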
